A study of Gallus gallus with 21 samples.

Results

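Of 21 RNA-seq libraries of chick trunk neural tube, 4 stood out by a high share of counts on the mitochondrial genome, and their nuclear transcripts are described here against those of 15 other libraries. The 4 libraries were CTRL replicate 4 and KO replicates 4, 5 and 6. They were chosen by one measured value, the percent of a library's counts on genes of the mitochondrial chromosome, which was 10.5% or more in each of them. The rest comprised 7 CTRL and 8 KO libraries under that value; CTRL replicate 1 and KO replicate 8 were left out of the comparison by the same rule. CTRL libraries came from chick embryos labelled wild type (9 in the series), and KO libraries from embryos in which MOXD1 was knocked out (12 in the series) with CRISPR/Cas9 in trunk neural crest cells before their lineage was set. Constructs were injected into the lumen of the neural tube and electroporated into one side, so a KO library can hold unedited cells. The construct given to control embryos and the stage at collection are not stated in the labels. Library preparation started from 50 ng of RNA, used a stranded mRNA kit and ended with 14 PCR cycles in both groups. The gene IDs of the count table were not paired with symbols, so the MOXD1 level, markers of neural tube and of other tissues, and pathways were not analysed here, and genes are described by position, structure and level.

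Mitochondria carry a small circular genome that encodes subunits of the respiratory chain together with the ribosomal and transfer RNAs needed to make them. Its messenger RNAs carry poly(A) tails and are captured by poly(A) selection. The mitochondrial share of a library varies with the mitochondrial content of the cells and is also widely used as a sign of sample quality. In the chicken, nuclear genes lie on a few large chromosomes and many small, gene-dense ones, on which genes tend to be shorter.

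The mitochondrial share was 11.0% in CTRL replicate 4, 11.5% in KO replicate 4, 11.1% in KO replicate 5 and 14.3% in KO replicate 6. In the rest it ran from 6.68% to 9.18%. CTRL replicate 4 lay just inside the limit, and KO replicate 3, with 9.18%, was the nearest library of the rest. CTRL replicate 1, which was left out, had 9.82%. The 95% Wilson interval of the share in CTRL replicate 4, 10.96% to 10.99%, covers counting error only. The sample descriptions of the 3 KO libraries carry the numbers 5, 6 and 7 and the suffixes S21, S22 and S23, in a row. CTRL replicate 4 carries S12. The S numbers follow the order of the replicate numbers within each group. CTRL replicates 5 and 6 also carry label numbers 5 and 6, at shares of 6.68% and 6.74%, and no CTRL library carries 7. The labels do not say what these numbers stand for or whether they mark a shared step.

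**Figure D1:**
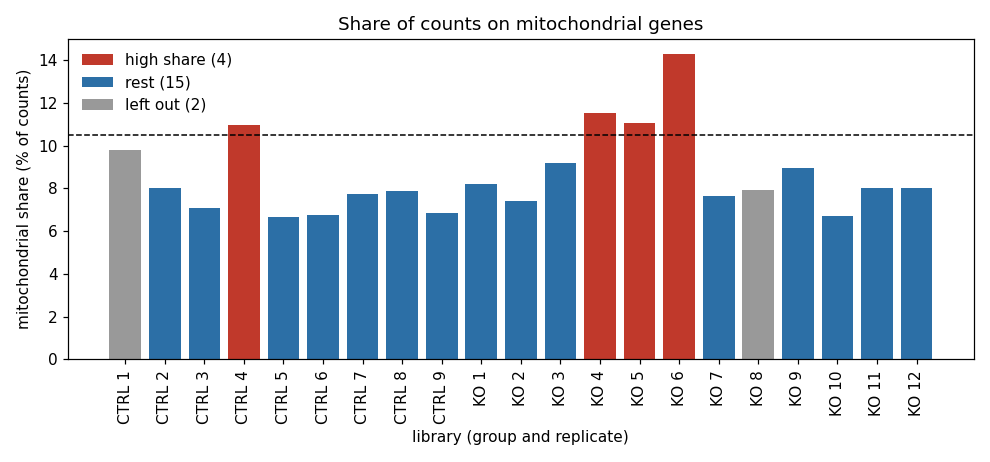
Percent of each library's counts on mitochondrial genes (bar height) for all 21 libraries, with the limit of 10.5% as a dashed line. The 4 libraries with a high share reach 11.0% to 14.3%, the 15 libraries of the rest lie at 6.68% to 9.18%, and the pair left out is grey.

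Most mitochondrial genes stood higher in the 4 libraries. Of 37 mitochondrial genes listed, 16 are at least 100 bases long and 21 are shorter. Of the 25 that averaged 1 CPM or more (counts-per-million, here of all counts), 24 had a higher mean in the 4 libraries than in the rest, with a median ratio of 1.53 and a range of 0.975 to 1.92. For 11 of the 25, all 4 libraries lay above all 15 of the rest. These values chose the libraries and carry no test. The most abundant gene, of 1548 bases on the plus strand of MT at 6645 to 8192 (GRCg6a), had 26918 CPM in CTRL replicate 4 and 27590, 27683 and 36497 in KO replicates 4, 5 and 6, against 15097 to 22819 in the rest (median 20333). One gene stood at a ratio below 1, of 976 bases at 1297 to 2272 on the plus strand. It had 718 to 1174 CPM in the 4 libraries and 419 to 3554 in the rest, so the groups overlapped. The median of the rest, 628 CPM, lay below all 4 libraries.

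Nuclear genes were compared after mitochondrial counts were removed. CPM of single genes from here on is taken over the counts of the nuclear genes tested, scaled by edgeR's TMM factors. The number of genes at 1 CPM or more per library, and the alternative filter at a mean of 1 CPM, use unscaled nuclear counts. Nuclear counts ran from 14390909 to 17653720 in the 4 libraries and from 15247970 to 19708447 in the rest. The comparison asked which nuclear transcripts differ in libraries with a high mitochondrial share, with group (CTRL or KO) as a term. By edgeR's quasi-likelihood test over 14575 nuclear genes, 6 had a Benjamini-Hochberg adjusted p under 0.05 (0.0412%), all of them lower in the 4 libraries, and 0 were higher. Many more genes lay just above the threshold: at an adjusted p under 0.06, 277 genes were lower and 35 higher. At an unadjusted p under 0.05, 2080 genes were lower (14.3%) and 1034 were higher (7.09%). DESeq2 called 1029 genes lower and 215 higher at an adjusted p under 0.05, over 20790 nuclear genes without the edgeR filter. On the 14575 genes, limma with voom weights called 0 lower (1847 at an unadjusted p under 0.05) and 1 higher. The number of calls was thus not stable across tools, though DESeq2 was run on more genes. Without single libraries of the 19 it ran from 0, without any one of CTRL replicate 5 and KO replicates 4, 5, 6, 7 and 11, to 1128 without CTRL replicate 3, whereas the count at an unadjusted p under 0.05 stayed between 2233 and 3781.

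The size of the differences was moderate. Genes at an unadjusted p under 0.05 had a median log2 change of -0.64 where lower and 0.36 where higher, and 394 of the lower and 46 of the higher genes differed by at least 2-fold. The CPM of all 4 libraries lay below those of all 15 for 92 genes (0.631% of those tested) and above them for 44 (0.302%). In bulk tissue, fewer cells of a type and less RNA per cell cannot be told apart in any of these values.

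The 6 genes past the threshold had 11 to 43 exon blocks (exons merged where they overlap), against a median of 9 over all genes tested. ENSGALG00000047009 lies on chromosome 2, minus strand, at 55333143 to 55347701 (GRCg6a), with 11 exon blocks and an exon length of 6048 bases. It had 45.1 CPM in CTRL replicate 4 and 35.02, 37.8 and 35.6 CPM in KO replicates 4, 5 and 6, against 54.6 to 102 CPM in the rest, with a median of 74.8 CPM. All 4 libraries were thus below all 15, and its log2 change was -0.94 (SE 0.15, edgeR adjusted p = 0.0396). It overlaps 1 other annotated gene on its strand, and the counting command named no option for reads that fall on both.

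ENSGALG00000002706 (chromosome 9, minus strand, 10579299 to 10611437) has 43 exon blocks over 5313 exon bases. It had 36.1 CPM in CTRL replicate 4 and 32.2, 34.6 and 30.4 CPM in KO replicates 4, 5 and 6, against 44.2 to 73.2 CPM in the rest (median 61.9 CPM). Again the groups did not overlap, at a log2 change of -0.81 (SE 0.13, edgeR adjusted p = 0.0396).

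A gene with 24 exon blocks (chromosome 4, minus strand, 65398425 to 65431696) was the most abundant of the 6 in the rest, with 69.6 to 170 CPM and a median of 123 CPM. It stood at 58.4 CPM in CTRL replicate 4 and at 34.6, 45.8 and 40.0 CPM in KO replicates 4, 5 and 6, a fold of 0.388 (log2 change -1.37, SE 0.24, edgeR adjusted p = 0.0396). For each of these 3 genes CTRL replicate 4 had the highest CPM of the 4 libraries.

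The other 3 genes past the threshold were chosen for mention after their values were seen. They lie on chromosome 2 at 34651269 to 34954644 (minus strand, 25 exon blocks), on chromosome 3 at 37863579 to 37889231 (plus strand, 15 exon blocks) and on chromosome 6 at 10769461 to 10913135 (plus strand, 15 exon blocks). Their folds were 0.595, 0.540 and 0.378, and in each the 4 libraries lay below all 15. The gene on chromosome 6 had 4.56 CPM in CTRL replicate 4 and 5.31, 3.91 and 4.23 CPM in KO replicates 4, 5 and 6, against 6.66 to 20.1 CPM in the rest. Each of the 6 calls was lost in at least 9 of 34 alternative fits, and none of the 6 genes changed direction in any of them.

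No gene passed the threshold on the higher side, and the 2 genes with the smallest unadjusted p by the naming rule are given as values. ENSGALG00000052202 (chromosome 32, plus strand, 271162 to 276894) has 7 exon blocks. It had 69.6 CPM in CTRL replicate 4 and 67.3, 68.7 and 63.2 CPM in KO replicates 4, 5 and 6, against 36.7 to 54.6 CPM in the rest, without overlap (log2 change 0.50, SE 0.09, edgeR adjusted p = 0.0526). It overlaps 1 other gene on its strand.

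ENSGALG00000010768 (chromosome 3, minus strand, 35970274 to 35972202), with 1 exon block, had 10.6 CPM in CTRL replicate 4 and 16.4, 15.05 and 15.97 CPM in KO replicates 4, 5 and 6. The rest lay at 6.72 to 12.0 CPM, so that CTRL replicate 4 fell inside their range and the 3 KO libraries above it (log2 change 0.70, SE 0.14, edgeR adjusted p = 0.0526). The rule that named these genes required all 4 libraries on one side of the median of the rest of their own group.

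**Figure D2:**
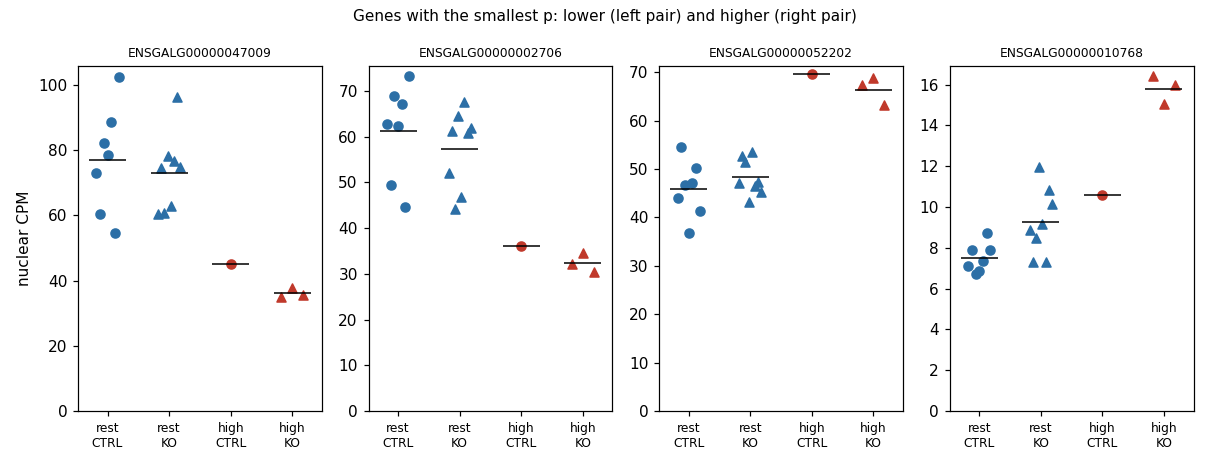
CPM over TMM-scaled counts of the nuclear genes tested (y axis, from 0) for the 2 lower and 2 higher genes with the smallest p. Each library is 1 point, by set and group, with a line at each mean. The 4 libraries with a high mitochondrial share lie outside the range of the rest for the first 3 genes; for the gene at 10.6 to 16.4 CPM, CTRL replicate 4 lies within it.

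Abundant genes, averaging 100 CPM or more, that did not pass the threshold were examined after their values were seen, 4 on each side with the smallest p. On the higher side, a gene on chromosome 31 at 5630460 to 5636404 (minus strand, 552 exon bases) had 140 CPM in CTRL replicate 4 and 155, 145 and 147 CPM in KO replicates 4, 5 and 6, against 85.3 to 133 CPM in the rest. On the lower side, a gene on chromosome 1 at 58915471 to 58950391 (minus strand, 3185 exon bases) had 101.1 CPM in CTRL replicate 4 and 98.0, 109 and 100.8 CPM in KO replicates 4, 5 and 6, against 124 to 145 CPM in the rest. For both genes the 4 libraries and the rest did not overlap. The most abundant of the 8 genes examined this way, on chromosome 6 at 30925510 to 30953116 (minus strand, 22 exon blocks), had 460 to 595 CPM in the 4 libraries and 576 to 857 CPM in the rest, so that CTRL replicate 4, at 595 CPM, lay within the range of the rest. It overlaps 2 other genes on its strand. The 4 genes on the higher side spanned at most 9217 bases, and the 4 on the lower side at least 27607.

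Across all genes, short genes tended to be higher and long genes lower in the 4 libraries. The span of a gene is the distance from its first to its last exon base, introns included. Among 6252 genes spanning under 10 kb, 13.4% were on the higher side of an unadjusted p under 0.05 and 4.30% on the lower, with a median log2 change of 0.15. Of 7254 genes spanning 10 to 100 kb, 2.54% were higher and 20.1% lower (median -0.094). Genes spanning 100 to 300 kb (936 genes) were higher in 0.962% and lower in 32.6% of cases (median -0.32). For the 133 genes of 300 kb or more, 0.752% were higher and 34.6% lower (median -0.34). Over all 14575 genes the corresponding values were 7.09%, 14.3% and a median of 0.0047. In the fit on KO libraries only, the 4 medians were 0.21, -0.054, -0.33 and -0.44, and CTRL replicate 4 alone, set against the median of the other 7 CTRL libraries as log2(CPM + 1), gave 0.10, -0.11, -0.15 and -0.16.

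Exon length, the summed length of a gene's merged exons, gave a like order. Of 1571 genes with under 1 kb of exons, 15.8% were higher and 8.34% lower (median log2 change 0.18). Of 1157 genes with 5 kb or more, 0.432% were higher and 37.9% lower (median -0.34). In the fit on KO libraries only, the medians of these classes were 0.23 and -0.46. CTRL replicate 4 alone, set against the other CTRL libraries as before, gave 0.095 and -0.092, beside -0.027 over all genes. The 7700 genes with 2 to 5 kb of exons had a median of -0.038. This turned to 0.0135 in KO libraries only, where the median of all genes was 0.047, and was -0.078 in CTRL replicate 4 alone. The class thus lay below the median of all genes each time. The genes at an unadjusted p under 0.05 on the lower side had a median span of 36892 bases and 15 exon blocks, and those on the higher side 4392 bases and 5 exon blocks, against 12914 bases and 9 exon blocks over all genes tested. Of the 44 genes that lay above the rest in all 4 libraries, 41 spanned under 10 kb. Of the 92 that lay below, 10 spanned under 10 kb and 82 spanned 10 kb or more. Over all genes tested, 6252 of 14575 spanned under 10 kb. By level, the median log2 change was 0.046 for genes under 1 CPM, 0.013 at 1 to 10 CPM, -0.0043 at 10 to 100 CPM and 0.0079 at 100 CPM or more. The percent of genes higher at an unadjusted p under 0.05 rose with level, at 2.25%, 3.69%, 8.99% and 9.71%. The medians showed no such rise. The percent lower was 4.31%, 9.44%, 18.5% and 15.4%, largest at 10 to 100 CPM.

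**Figure D3:**
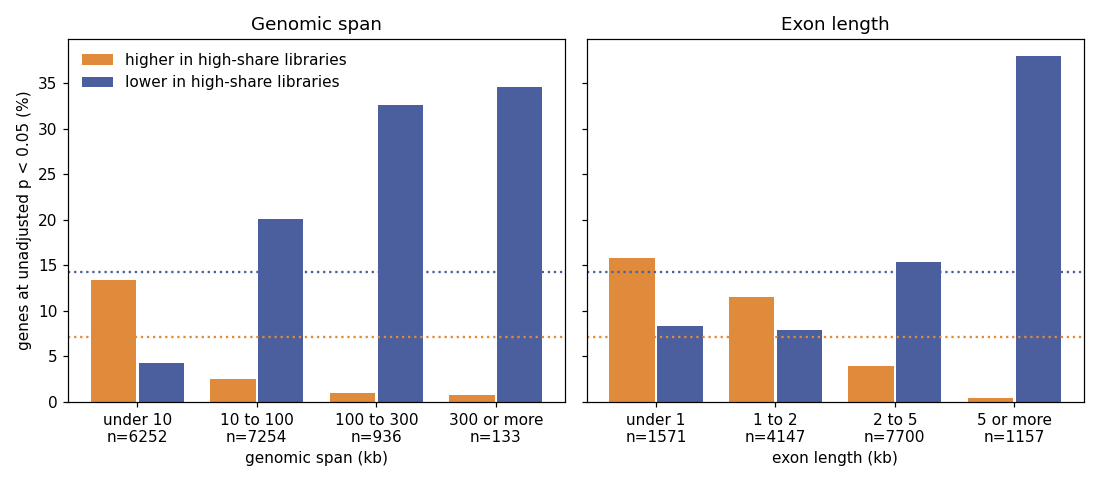
Percent of nuclear genes higher (orange) or lower (blue) in the 4 libraries at an unadjusted p under 0.05, by genomic span and by exon length; dotted lines give the percent over all 14575 genes. The percent lower goes from 4.30% to 34.6% with span and is 37.9% at 5 kb or more of exons.

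Span and exon length go together, and when crossed each still ordered most classes within the other. Among genes spanning under 10 kb, the median log2 change was 0.21 with under 1 kb of exons (1347 genes) and 0.088 with 2 to 5 kb (2191 genes). Among genes with 2 to 5 kb of exons, it was 0.088 at spans under 10 kb, -0.078 at 10 to 100 kb (4852 genes) and -0.26 at 100 to 300 kb (580 genes), but -0.19 at 300 kb or more (77 genes). Among genes spanning 10 to 100 kb the order was likewise broken at the short end, with -0.075 under 1 kb of exons (208 genes) and -0.0050 at 1 to 2 kb (1363 genes). The 41 genes with both the longest span and the longest exons had a median of -0.55, and 51.2% of them were lower at an unadjusted p under 0.05 with 0 higher. Genes with 1 exon block, 567 in all, did not follow the short genes in the fit over 19 libraries: 4.94% were higher and 8.29% lower, with a median of 0.013. The libraries differed in this. Median log2 differences from the median of the rest of the own group were 0.17 in CTRL replicate 4 and -0.045, -0.072 and -0.017 in KO replicates 4, 5 and 6.

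By chromosome, medians were highest on small chromosomes, at 0.21 for the 72 genes of chromosome 32, 0.20 for the 259 of chromosome 33 and 0.20 for the 113 of chromosome 30, and lowest on Z (653 genes, -0.14). For chromosomes 32, 33 and 30 the medians were 0.19, 0.19 and 0.16 in the fit on KO libraries only. In CTRL replicate 4 alone they were 0.38, 0.38 and 0.40, with 0.40 for chromosome 31. The Z median was -0.050 in the fit on KO libraries only, where chromosome 31 (76 genes) was lower at -0.11 and the median of all genes was 0.047, and -0.21 in CTRL replicate 4 alone. Of the genes tested, 56.4% spanned under 10 kb on chromosomes 11 and higher and 33.7% on chromosomes 1 to 5. The overall medians of 0.075 and -0.039 became 0.17 and 0.14 when only genes under 10 kb were read, and -0.072 and -0.097 for genes of 10 to 100 kb. The chromosome groups thus lay closer together among genes spanning under 100 kb, but not among genes of 100 to 300 kb, with -0.20 on chromosomes 11 and higher (160 genes) and -0.34 on chromosomes 1 to 5 (554 genes). For Z, the W share of nuclear counts is given beside it: 0.222% in CTRL replicate 4, 0.270% in KO replicate 4, 0.00227% in KO replicate 5 and 0.278% in KO replicate 6. In birds W is carried by females, and 5 libraries of the rest also had little W signal. With the log2 W share as a term, edgeR called 55 genes lower and 5 higher. Its part in the Z values was not tested.

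The order by gene length was not limited to the 4 libraries. Genes spanning under 10 kb stood at a median log2 difference of 0.11 from the rest of the group in CTRL replicate 4 and of 0.16, 0.15 and 0.18 in KO replicates 4, 5 and 6. Each library of the rest was set against the others of its group in the same way, and they ran from -0.17 to 0.18. CTRL replicate 3, with a mitochondrial share of 7.10%, gave the 0.18. For genes spanning 100 to 300 kb the values were -0.17 in CTRL replicate 4 and -0.50, -0.32 and -0.34 in KO replicates 4, 5 and 6, and the rest ran from -0.44, again CTRL replicate 3, to 0.32. Of the rest, CTRL replicate 8 and KO replicate 9 also lay below CTRL replicate 4, at -0.30 and -0.35, and KO replicate 3 at -0.22. For genes spanning under 10 kb the 4 libraries thus lay toward the high end of a range that CTRL replicate 3 shared. At 100 to 300 kb KO replicates 4, 5 and 6 lay toward the low end, as did some libraries of the rest. CTRL replicate 4 lay further inside the range of the rest there.

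**Figure D4:**
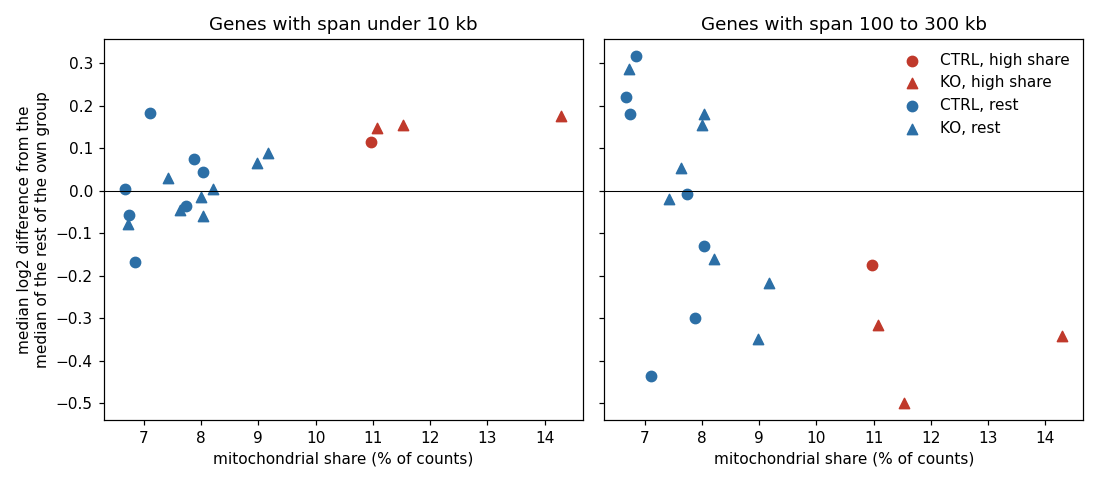
Median log2 difference from the median of the rest of the own group (y axis) against mitochondrial share (x axis, percent of counts) for genes spanning under 10 kb and 100 to 300 kb, 1 point per library. The 4 libraries lie at 0.11 to 0.18 on the left panel and -0.50 to -0.17 on the right; CTRL replicate 3, at a share of 7.10%, lies at 0.18 and -0.44.

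As single values per library, shares of nuclear counts by gene length differed in the same direction but did not pass after adjustment. The 12 measures were compared by an exact permutation test over all 1320 ways to place the labels within CTRL and within KO, 2-sided, for which the smallest p possible is 7.58e-04. Genes with under 1 kb of exons took 7.82% ± 0.220 (SD, n = 4) of nuclear counts in the 4 libraries and 6.18% ± 1.30 (SD, n = 15) in the rest, with 2 libraries of the rest above all 4 (exact permutation p = 0.0144, adjusted p = 0.0855 over 12 measures). Genes with 5 kb or more of exons took 10.8% ± 1.86 (SD, n = 4) and 13.9% ± 2.10 (SD, n = 15) (exact permutation p = 0.0311, adjusted p = 0.0855). In CTRL replicate 4 this share was 13.6%, within the rest, whereas KO replicates 4, 5 and 6 had 9.71%, 10.1% and 9.87%. Genes spanning 300 kb or more took 0.434% ± 0.0440 (SD, n = 4) against 0.579% ± 0.116 (SD, n = 15) (exact permutation p = 0.0356, adjusted p = 0.0855). The share on genes with 1 exon block was 0.759% ± 0.0202 (SD, n = 4) against 0.716% ± 0.0353 (SD, n = 15) (exact permutation p = 0.0220, adjusted p = 0.0855). Adjusted for group, that difference was 0.0341 percentage points, and 0.0113 without CTRL replicate 4 (exact permutation p = 0.267).

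Measures of depth and breadth had larger p-values. Nuclear counts averaged 16270000 ± 1367300 (SD, n = 4) in the 4 libraries and 17648000 ± 1416900 (SD, n = 15) in the rest, with CTRL replicate 4 the lowest of the 19 (exact permutation p = 0.0712, adjusted p = 0.142). The difference adjusted for group was -1481300 counts, and -783100 without CTRL replicate 4. Nuclear genes at 1 CPM or more numbered 12884 ± 170 (SD, n = 4) in the 4 libraries and 12815 ± 133 (SD, n = 15) in the rest (exact permutation p = 0.253, adjusted p = 0.337). The 20 most abundant nuclear genes took 10.1% ± 0.709 (SD, n = 4) and 9.76% ± 1.36 (SD, n = 15) of nuclear counts (exact permutation p = 0.524). The W and Z shares, the second component and the SD of log2 differences from the median library had adjusted p of 0.337, 0.337, 0.524 and 0.519 by the same exact permutation test. On the leading principal component of log2 CPM of autosomal genes, which held 25.4% of the variance over the 19 libraries, CTRL replicate 4 lay at 21.02 and KO replicates 4, 5 and 6 at 56.1, 26.4 and 37.4. The rest ran from -61.9 to 31.0, so only KO replicates 4 and 6 lay beyond them (exact permutation p = 0.0235, adjusted p = 0.0855). The sign of each component was set so that it rises with the mitochondrial share. With CTRL replicate 1 and KO replicate 8 included, which changes the components themselves, the difference adjusted for group went from 43.6 to 3.62 on the leading component (exact permutation p = 0.909) and from 10.2 to 43.1 on the second (exact permutation p = 0.00909, adjusted p = 0.0545).

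Within the 15 libraries of the rest alone, the share of nuclear counts on genes with 5 kb or more of exons was lower where the mitochondrial share was higher. This comparison was not planned. It took only 4 of the 12 measures, the shares by gene length and exon number, and the adjustment covers those 4 alone. Each of the 4 already had an exact permutation p under 0.05 before adjustment in the split of 4 against 15 libraries. Here values were permuted over all 15 libraries without regard to group. Pearson's r was -0.620 (permutation p = 0.0143, adjusted p = 0.0572 over 4 measures) and Spearman's rho -0.586 (permutation p = 0.0239, adjusted p = 0.0477). Without KO replicates 3 and 9, the 2 libraries farthest from the median mitochondrial share, r was -0.444. Within groups, r was -0.534 over 7 CTRL and -0.857 over 8 KO libraries. For genes with under 1 kb of exons the pooled r was 0.452 and rho 0.600 (permutation p = 0.0887 and 0.0209, adjusted p = 0.118 and 0.0477), with r of 0.375 without those libraries, 0.644 in CTRL and 0.849 in KO. For spans of 300 kb or more r was -0.562 and rho -0.539 (permutation p = 0.0301 and 0.0400, adjusted p = 0.0602 and 0.0533), and -0.400 without those libraries. The share of genes with 1 exon block gave an r of 0.255 and a rho of 0.379 (permutation p = 0.363 and 0.165, unchanged by adjustment), with r of 0.0414 without those libraries, -0.564 in CTRL and 0.161 in KO. In these 15 libraries edgeR with the log2 mitochondrial share as a continuous term called 0 genes, with 2804 of 14435 tested at an unadjusted p under 0.05. The split of 4 against 15 libraries had 3114 of 14575 at that level.

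CTRL replicate 4 was the only CTRL library of the 4, and its values were set beside those of KO replicates 4, 5 and 6. Over 12390 autosomal genes, the correlation of its log2 differences from the mean of the CTRL rest with those of KO replicates 4, 5 and 6 from the mean of the KO rest was 0.26, 0.15 and 0.10. For CTRL replicate 3 of the rest, the same values were 0.33, 0.46 and 0.53, above those of CTRL replicate 4. These correlations are across genes, which are not independent replicates, and carry no test. Within KO alone, 3 against 8 libraries, edgeR called 902 genes lower and 293 higher at an adjusted p under 0.05, of 14238 tested. Of the 2283 genes lower in KO at an unadjusted p under 0.05, 31.0% were above the median of the CTRL rest in CTRL replicate 4, and of the 1743 higher genes 55.1%, against 47.2% of all 14233 genes. CTRL libraries took no part in the choice of those genes, but the same percents were not taken for any other CTRL library. Without CTRL replicate 4, edgeR called 452 genes lower and 63 higher. A test of whether the split differed between CTRL and KO, the interaction term, called 0 genes by edgeR, with 1495 genes at an unadjusted p under 0.05 and only 1 library on the CTRL side.

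With the split as a term, the comparison of KO with CTRL over these 19 libraries called 0 of 14575 genes (0%) by edgeR's quasi-likelihood test, with 757 at an unadjusted p under 0.05 and a smallest adjusted p of 0.928. With group as the only term it also called 0 genes, with 819 at that level and a smallest adjusted p of 0.820. DESeq2 with the split as a term called 0, with 988 at an unadjusted p under 0.05. Genes at that level were thus 21.4% of those tested for the mitochondrial split and 5.19% for KO against CTRL in the same model. The split was chosen from a value measured in these libraries and group was set by design, so these percents are not like measures of effect.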

How the data were processed

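The deposited table held raw fragment counts per gene, which the authors obtained with featureCounts 2.0.1 from exons (Ensembl release 101, GRCg6a, read pairs, reverse strand), per the file headers; the other deposited value, the exon length per gene in bases, came with the counts. STAR, FastQC, MultiQC, bcl2fastq and DESeq2 are named in the submitters' processing notes without versions. No other column of values was present (0 columns). Of 24356 gene IDs, 0 matched the RefSeq table at hand, which is of another assembly, so the planned lists by symbol were not run. Groups and replicate numbers came from the sample titles. The design text counts as many knock-out embryos as KO libraries; batches are not given.

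Mitochondrial genes were removed, and 14575 of 24319 nuclear genes passed filterByExpr. edgeR 4.0.16 (R 4.3.3; TMM factors, quasi-likelihood F test, group as covariate, 2-sided, Benjamini-Hochberg) was tested on simulated data beforehand. DESeq2 1.42.0, limma 3.58.1, other scalings, filters and covariates, and fits without each library were alternatives. The members, classes and lists were chosen with earlier results of these data known. Genes averaging 1 CPM or more with all 4 libraries on one side of the median of the rest of their group were named by smallest p, 2 per direction by ID, and those past the threshold at 100 CPM or more by position. Values by library use log2 CPM. No pair of libraries of one group agreed within sampling noise (lowest chi-square per degree of freedom 26.7 over 83 pairs). Total counts ran from 16164404 to 21133788 per library.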

Additional observations from a re-analysis of the deposited data

Results flagged for a closer look

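Of 39 sets of values per library examined, 4 held 1 library far from the others of its set; about 1 in 20 would by chance. Among the 4 libraries with a high mitochondrial share, KO replicate 6 was far above the other 3 in mitochondrial share, at 14.3%, which is a value that chose it. CTRL replicate 4 was far above the other 3 in the share of nuclear counts on genes with 5 kb or more of exons, at 13.6%. Among the 7 CTRL libraries of the rest, CTRL replicate 9 was far below the others in the W share of nuclear counts, at 0.00489%, and far above them in the Z share, at 3.48%. Low W and high Z shares went together, so these flags are not separate. KO replicates 1, 3, 9 and 10 of the rest had like values, with W shares of 0.00265% to 0.00442% and Z shares of 3.19% to 3.52%. The other KO libraries of the rest had W shares of 0.195% to 0.221%.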

How the results depend on the processing

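Calls at an adjusted p under 0.05 (0 higher and 6 lower, 6 in all) moved by more than 1.5 times under most alternatives. Higher, lower and total calls were 17, 149 and 166 with RLE factors; 3, 43 and 46 with mitochondrial counts kept in the library size; 27, 301 and 328 at a mean of at least 1 CPM; 122, 377 and 499 without the group term; 5, 55 and 60 with the log2 W share added; 561, 1598 and 2159 with the log2 mitochondrial share as a continuous term; 17, 93 and 110 with CTRL replicate 1 and KO replicate 8 included; 293, 902 and 1195 in KO libraries only; 215, 1029 and 1244 with DESeq2; and 1, 0 and 1 with limma voom. Upper-quartile factors gave 1, 6 and 7 and shifted the median of all genes to 0.062, no filter gave 0, 5 and 5, and library size only 0, 6 and 6. Without each of the 19 libraries in turn, higher calls ran from 0 to 269, lower calls from 0 to 859 and all calls from 0 to 1128. Totals of 2, 2 and 1 came without CTRL replicates 2, 6 and 9, and of 515, 459, 429, 400 and 494 without CTRL replicates 4 and 8 and KO replicates 1, 3 and 9. The causes were not tested. The share of lower genes among those at an unadjusted p under 0.05 was 66.8% and ran from 51.9% to 74.6% over the alternatives, with 53.0% under upper-quartile factors.

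In the 15 libraries of the rest alone, a fit chosen after seeing the data, edgeR called 0 genes in either direction (2804 at an unadjusted p under 0.05), and the gene on chromosome 1 at 58915471 to 58950391 turned to 0.22. With the replicate block, edgeR's test called 0 genes (0 lower), and at an unadjusted p under 0.05 there were 504 on the higher side and 1243 on the lower. Libraries with the same replicate number correlated at -0.33 to 0.44 over 7 numbers, not all over 0.1, so replicate numbers are not read as pairs. The label numbers differ from the replicate numbers for some libraries, and pairing by label number was not examined. The SD of log2 differences from the median library, adjusted for group, turned from 0.041 to -0.030 with CTRL replicate 1 and KO replicate 8 included. No other measure per library changed direction, though the sign rule was applied anew to the components in each fit. No measure passed after adjustment in the alternatives run. In KO libraries only and without CTRL replicate 4, the smallest exact permutation p possible was 0.00606. The share on genes with under 1 kb of exons had that p, but its adjusted p was 0.0727, so it could not pass alone. The sizes of several measures moved by over 1.5 times, as given for the components and the share on genes with 1 exon block. The medians of the 8 length classes kept their direction with RLE factors and with library size only. Upper-quartile factors were not run for them. The class with 2 to 5 kb of exons turned in KO libraries only but stayed below the median of all genes in that fit. KO against CTRL gave 0 calls by edgeR and by DESeq2 in each fit run, with 757 to 988 genes at an unadjusted p under 0.05.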
